A study of Danio rerio with 12 samples.

Results

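The enzymes of the 4 irreversible steps of gluconeogenesis were followed across 12 liver libraries as a set of 10 genes out of the 32520 in the tables. They are pck1, pck2, g6pc1a.1, g6pc3, fbp1a and fbp1b, together with 2 further copies of G6PC1 and 2 copies of pyruvate carboxylase (PC). The set was chosen by enzyme name: pyruvate carboxylase, phosphoenolpyruvate carboxykinase, fructose-bisphosphatase 1 and the catalytic subunits of glucose-6-phosphatase. The name table used here does not say which of G6PC1 (ENSDARG00000013721) and G6PC1 (ENSDARG00000014967) is g6pc1a.2 and which g6pc1b. Nor does it say which of PC (ENSDARG00000098766) and PC (ENSDARG00000051939) is pcxa and which pcxb, so these 4 copies are given by identifier.

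The libraries were made from whole liver of zebrafish, 6 from wild type fish (glo2+/+) and 6 from fish homozygous for a knockout allele of glyoxalase 2 (glo2-/-). Glyoxalase 2, whose zebrafish gene is hagh, acts in the removal of methylglyoxal, which glycolysis forms as a side product, and the series title concerns glucose metabolism after its loss. Both genotypes carried the Tg(fli1:EGFP) transgene, which marks endothelial cells with a green fluorescent protein, and the labels describe all 12 samples as untrained. The labels give no age, sex or feeding state, do not say what the allele removes, and do not say whether each library came from its own fish. The p-values below therefore rest on the spread among libraries, and some of that spread may be technical.

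Gluconeogenesis makes glucose from lactate, amino acids and glycerol, and in vertebrates the liver is its main site. Pyruvate carboxylase turns pyruvate into oxaloacetate in the mitochondrion, and phosphoenolpyruvate carboxykinase turns oxaloacetate into phosphoenolpyruvate, in the cytosol (pck1) or in the mitochondrion (pck2). Fructose-bisphosphatase and glucose-6-phosphatase then reverse phosphorylation steps of glycolysis. In mammals, transcription of PCK1 and of the liver form of glucose-6-phosphatase rises in fasting under glucagon and glucocorticoids and falls under insulin.

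Depth was even, with 17433960 to 18465485 estimated counts per library and 14509 genes kept for testing. All 23 hepatocyte marker genes were tested, and their summed level lay between 210200 and 384500 CPM. CPM are counts per 1000000 of the library's counts in tested genes, with that total rescaled by TMM normalization factors. Exocrine pancreas markers varied most among the other tissues, from 25.1 CPM in glo2+/+ replicate 4 to 9025 CPM in glo2-/- replicate 1. They were highest in glo2-/- replicates 1 and 5 and glo2+/+ replicate 6. The 17 kidney markers, 7 of them tested, summed to 245 to 478 CPM. Of these, 6 stayed below 1 CPM in every library, NPHS1, cdh16 and umod among them. The 17 intestine markers, 10 of them tested, summed to 1808 to 3532 CPM, and 4 stayed below 1 CPM in every library. From which tissue the kidney and intestine marker transcripts came was not tested. The muscle fructose-bisphosphatase FBP2 also stayed below 1 CPM. The targeted gene hagh averaged 94.8 ± 5.4 CPM in the glo2+/+ libraries and 81.5 ± 4.47 CPM in the glo2-/- libraries (SD, n = 6 each), a log2 difference of -0.22 (SE 0.094, edgeR quasi-likelihood test, adjusted p = 0.819). In whole liver, fewer cells of a type and less RNA per cell cannot be told apart.

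Levels are first given in TPM, transcript abundances scaled for transcript length to a sum of 1000000 per library, so that genes can be set beside each other. The copies of each enzyme were present at very different levels. fbp1b was the most abundant of the set, at a mean of 1502 ± 195.2 TPM (SD, n = 12), and ranked 100 among all genes. pck2 followed at 430 ± 67.1 TPM, pck1 at 351 ± 306 TPM and G6PC1 (ENSDARG00000013721) at 253 ± 236 TPM. g6pc1a.1 stood at 124 ± 45.1 TPM and PC (ENSDARG00000098766) at 90.8 ± 32.8 TPM. PC (ENSDARG00000051939), at 13.8 ± 6.57 TPM, and fbp1a, at 9.44 ± 6.42 TPM, were the weaker copies of their enzymes. g6pc3, the glucose-6-phosphatase that mammals express in most tissues, had 2.34 ± 0.468 TPM. Several neighbours in this order had means that differed by less than the larger of their SDs over libraries. These were the neighbours from pck2 down to PC (ENSDARG00000098766), and PC (ENSDARG00000051939) with fbp1a. The SDs do not compare genes within a library. g6pc1a.1 lay above PC (ENSDARG00000098766) in every library except glo2+/+ replicate 5 (120.8 against 124.7 TPM). For the other neighbours named here the order changed from library to library, so it is not firm.

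**Figure D1:**
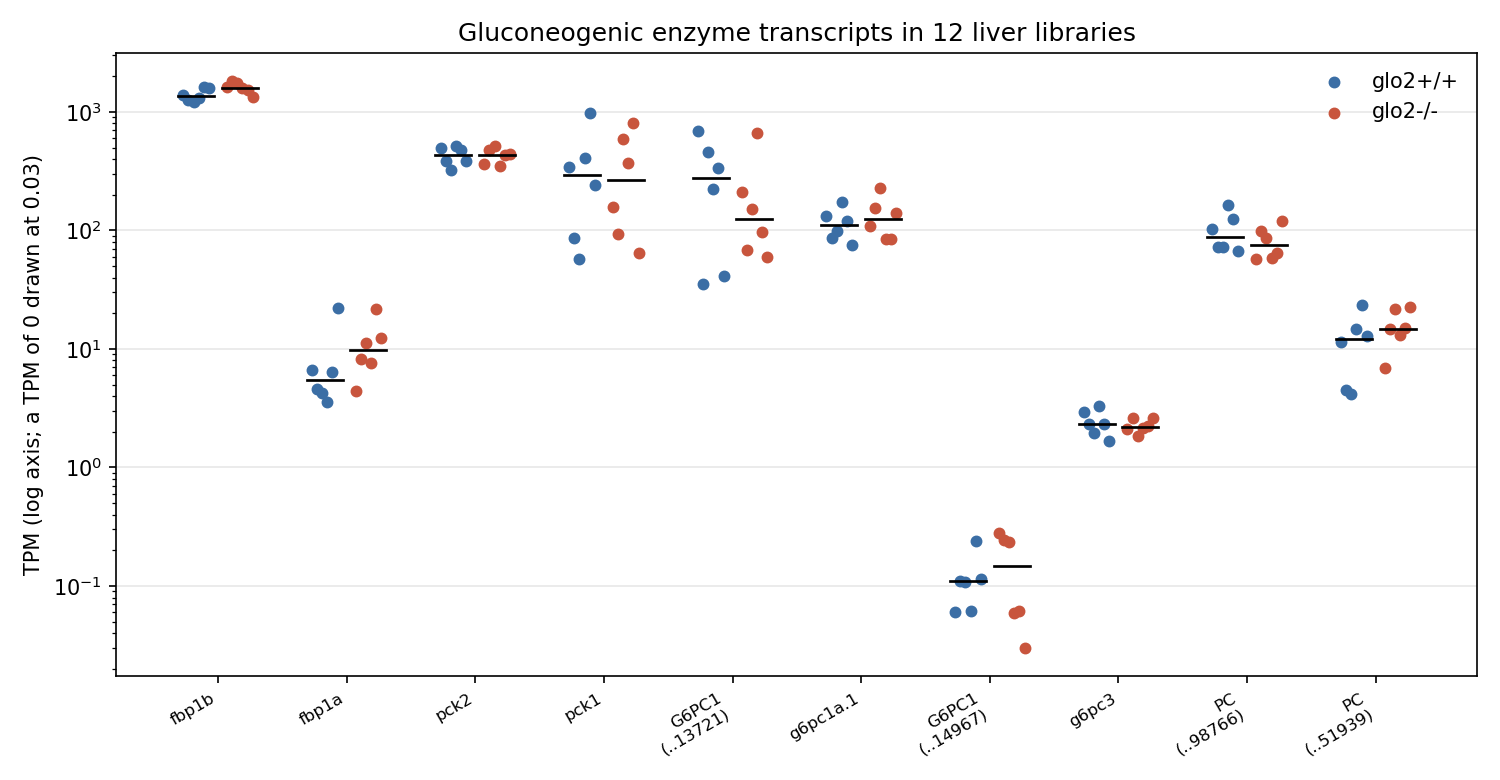
TPM on a log axis for the 10 genes, each point 1 library, 6 glo2+/+ and 6 glo2-/- libraries per gene, with black lines at the medians. pck1 and G6PC1 (ENSDARG00000013721) spread over more than a factor of 10 in TPM within the genotypes, from 56.9 to 986 and from 35.3 to 690, while fbp1b and pck2 stay within narrow bands.

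Pyruvate carboxylase was supplied mainly by PC (ENSDARG00000098766), with 86.8 ± 5.07% of the summed TPM of both copies (SD, n = 12; lowest 79.9%, highest 94.5%). In glo2+/+ liver this copy had 67.3 TPM in the lowest library, a median of 88.1 and 164 in the highest. In glo2-/- liver it had 57.2 TPM in the lowest library, a median of 75.4 and 120 in the highest. The ranges overlapped, with 2 of the glo2+/+ libraries, replicates 4 and 5, above all glo2-/- libraries. PC (ENSDARG00000051939) ran from 4.18 over a median of 12.2 to 23.5 TPM in glo2+/+ and from 6.88 over a median of 14.8 to 22.7 TPM in glo2-/-. Its lowest values were in glo2+/+ replicates 3 and 2, and the genotypes overlapped. The share of PC (ENSDARG00000098766) averaged 89.8 ± 4.73% over the glo2+/+ libraries and 83.9 ± 3.67% over the glo2-/- libraries (SD, n = 6 each).

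Phosphoenolpyruvate carboxykinase transcripts came from pck1 and pck2 in proportions that changed from library to library. pck1 made up 37.8 ± 19.4% of their summed TPM (SD, n = 12), from 12.8% in glo2-/- replicate 6 to 67.4% in glo2+/+ replicate 5. It was the larger share in 4 libraries, and pck2 was in the other 8. In glo2+/+ liver pck1 had 56.9 TPM in replicate 3, a median of 293 and 986 TPM in replicate 5. In glo2-/- liver it had 64.3 TPM in replicate 6, a median of 265 and 811 TPM in replicate 5. Each genotype thus held both low and high libraries, and the ranges overlapped almost fully. pck2 stayed between 323 and 520 TPM in glo2+/+ and between 349 and 514 TPM in glo2-/-, with medians of 432 and 436. The summed level of both genes ran from 380 to 1463 TPM.

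Fructose-bisphosphatase 1 was almost entirely fbp1b, with 99.4 ± 0.40% of the summed TPM (SD, n = 12). fbp1b ran from 1212 over a median of 1354 to 1624 TPM in glo2+/+ and from 1340 over a median of 1596 to 1811 TPM in glo2-/-. The higher median in glo2-/- came with ranges that overlapped. fbp1a had 3.54 TPM in the lowest glo2+/+ library, a median of 5.53 and 22.2 TPM in replicate 6. In glo2-/- it had 4.39 TPM in replicate 1, a median of 9.77 and 21.5 TPM in replicate 5. The libraries with the highest fbp1a, glo2+/+ replicate 6 and glo2-/- replicate 5, held 2956 and 4309 CPM of exocrine pancreas markers. glo2-/- replicate 1, with the highest pancreas marker level, had the lowest fbp1a of its genotype. In RefSeq's ordering of genes on the assembly GRCz12tu, fbp1a is the direct neighbour of fbp2, and fbp1b lies on the same chromosome 560 places away.

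Glucose-6-phosphatase, which releases free glucose from the liver cell, came from 2 copies in proportions that changed between libraries. g6pc1a.1 made up 44.2 ± 22.6% of the summed TPM of the G6PC1 copies and G6PC1 (ENSDARG00000013721) 55.7 ± 22.7% (SD, n = 12). g6pc1a.1 was the majority in 5 libraries and G6PC1 (ENSDARG00000013721) in 7. At the extremes, glo2-/- replicate 4 drew 88.7% from G6PC1 (ENSDARG00000013721), and glo2+/+ replicate 2 drew 70.8% from g6pc1a.1. G6PC1 (ENSDARG00000013721) ran from 35.3 over a median of 278 to 690 TPM in glo2+/+, and from 60.1 over a median of 125 to 664 TPM in glo2-/-. g6pc1a.1 ran from 75.5 over a median of 110 to 175 TPM in glo2+/+, and from 84.7 over a median of 125 to 228 TPM in glo2-/-. The sum of the copies therefore covered a 7.02-fold range, from 117 TPM in glo2+/+ replicate 6 to 823 TPM in glo2+/+ replicate 1. G6PC1 (ENSDARG00000014967) had 0 to 5 estimated counts per library, below what the test needs, and 0.0487% of the summed TPM. A count of 0, seen in glo2-/- replicate 6, still allows up to 3 counts. g6pc3 lay between 1.66 and 3.33 TPM in all 12 libraries. RefSeq places g6pc1a.1 and g6pc1a.2 on one chromosome, 4 places apart in gene order, and g6pc1b on another. The deposited counts of G6PC1 (ENSDARG00000013721), PC (ENSDARG00000098766) and fbp1b were not whole, by more than 0.001, in all 12 libraries, and those of pck2 were whole in all. Those of fbp1a and G6PC1 (ENSDARG00000014967) were also whole in all, and those of PC (ENSDARG00000051939) were not whole in 4 libraries. Fractions arise when reads are divided between transcripts, and the level of a gene with fractions carries that uncertainty. Which genes shared the divided reads was not tested, and the whole counts of fbp1a show no division between fbp1a and fbp1b.

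**Figure D2:**
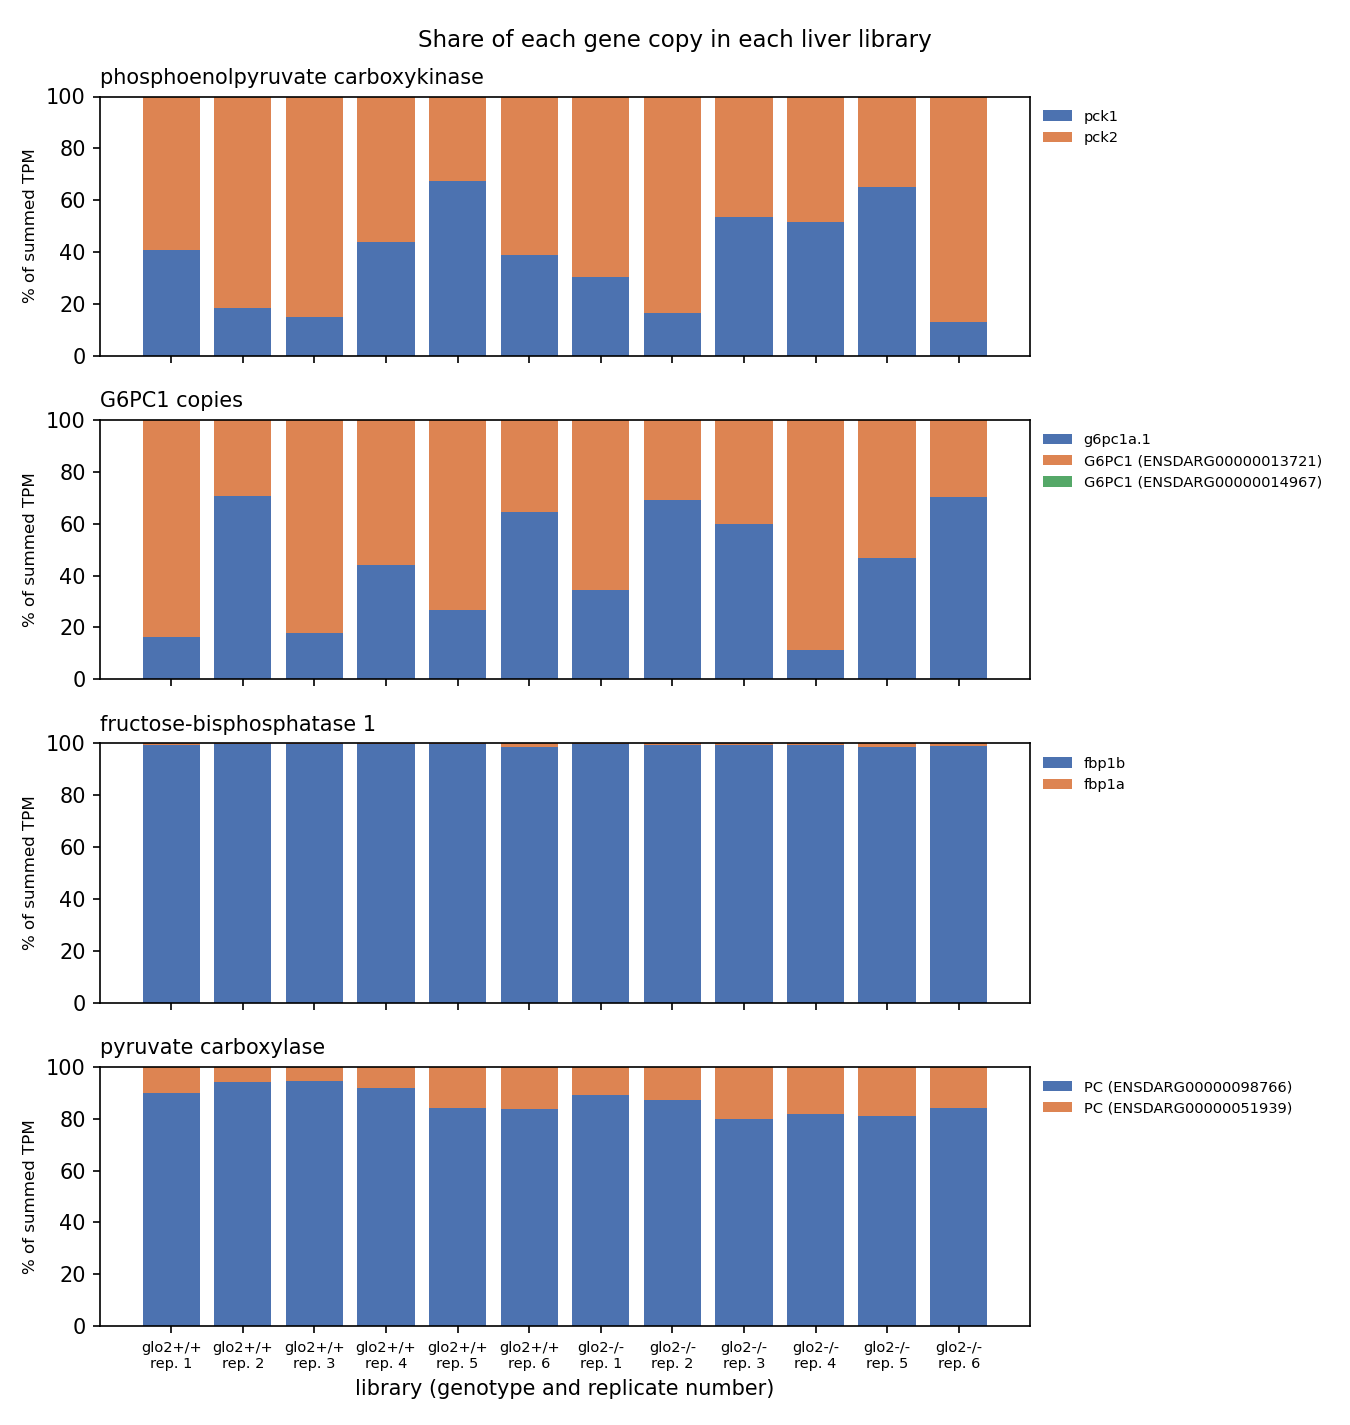
Stacked bars give the share of each gene copy in the summed TPM of its enzyme, in percent, for each of the 12 libraries. The pck1 share moves between 12.8% and 67.4% and the g6pc1a.1 share between 11.3% and 70.8%, while fbp1b and PC (ENSDARG00000098766) are the majority in all 12 libraries.

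The spread between libraries of one genotype was then measured as the SD of log2 CPM within genotype, with CPM scaled by TMM factors. The largest SDs were those of G6PC1 (ENSDARG00000013721), at 1.63, and pck1, at 1.39 log2 units. The SD of G6PC1 (ENSDARG00000013721) was above that of 98.3% of all tested genes, and that of pck1 above 97.3%. Among the 500 tested genes nearest in mean level, whose median SD was 0.28 for each, they stood above 97.6% and 97.0%. Counting error alone would give these genes an SD of 0.021 and 0.016. In CPM, pck1 ran from 130 in glo2-/- replicate 6 to 2079 in glo2+/+ replicate 5, and G6PC1 (ENSDARG00000013721) from 79.9 in glo2+/+ replicate 6 to 1470 in glo2-/- replicate 4.

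The remaining genes varied less. fbp1a had an SD of 0.78 (above 89.5% of tested genes), PC (ENSDARG00000051939) 0.62 (81.8%) and g6pc1a.1 0.45 (63.7%). PC (ENSDARG00000098766) had 0.31 (35.0%), g6pc3 0.27 (26.3%) and fbp1b 0.22 (14.5%). Counting error alone would give g6pc3 an SD of 0.18. pck2 had the smallest SD on this scale, 0.14 (1.70%), with 1163 to 1531 CPM over all libraries. Among the 500 tested genes nearest in mean level, PC (ENSDARG00000098766) stood above 57.2% and g6pc1a.1 above 76.2%. By the same measure fbp1a stood above 94.2%, PC (ENSDARG00000051939) above 87.4%, fbp1b above 23.6%, g6pc3 above 14.2% and pck2 above 2.0%. On the scale of log2(TPM + 1), which has no TMM factors, the SD of pck2 was 0.24 and stood above 34.3% of genes, and fbp1b (0.17) and g6pc3 (0.20) had smaller SDs. There PC (ENSDARG00000098766) had an SD of 0.48, above 85.2% of genes, and g6pc1a.1 one of 0.50, above 86.9%, so the rank of these genes depends on the scale. On that scale pck1 and G6PC1 (ENSDARG00000013721) stood above 99.3% and 99.4% of genes. Over all tested genes the median SD was 0.38, and 5 of the 9 tested enzymes were above it.

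**Figure D3:**
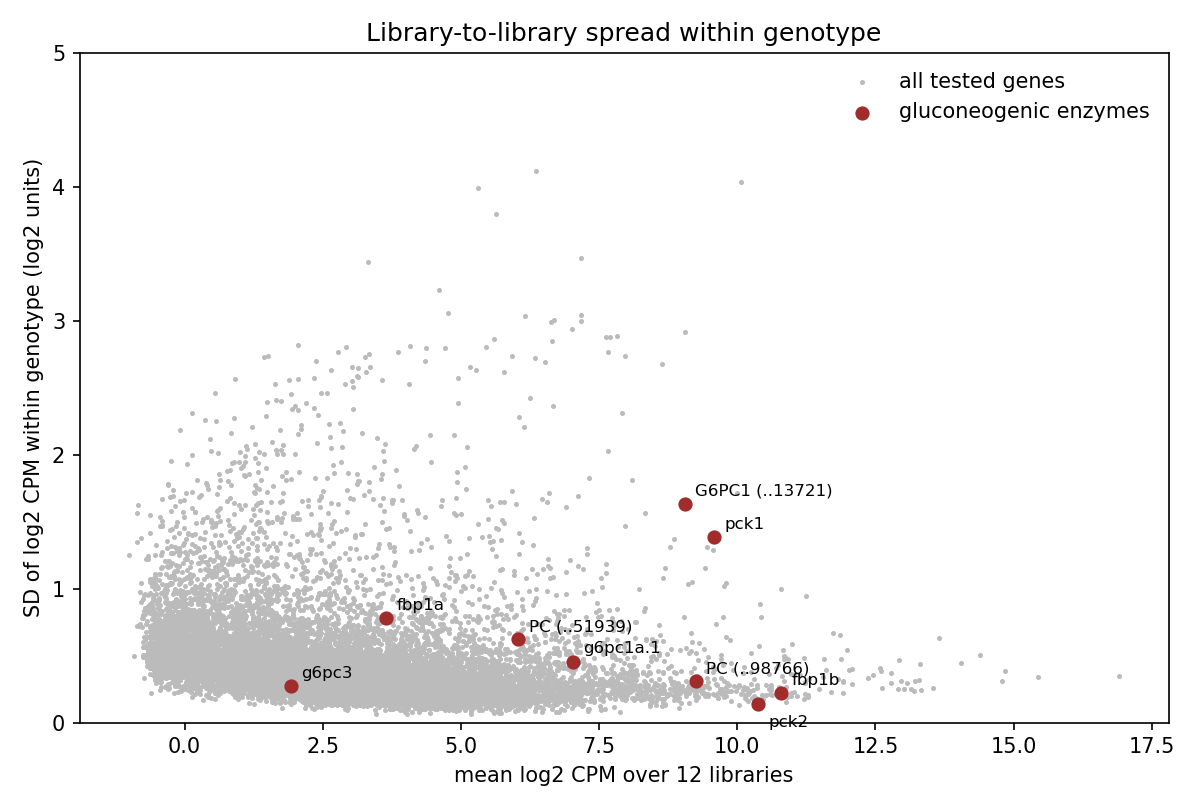
SD of log2 CPM within genotype against mean log2 CPM over 12 libraries, with all 14509 tested genes in grey and the 9 tested enzymes in red. pck1 (1.39) and G6PC1 (ENSDARG00000013721) (1.63) lie above most genes of like level, and pck2 (0.14) lies at the lower edge.

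Whether these enzymes differed between the genotypes was tested in one fit over all genes. No difference was called: 0 of 9 tested enzymes passed an adjusted p of 0.05 by edgeR's quasi-likelihood test, against a background of 0.00689% (1 of 14509 genes). DESeq2 also called 0 of 9, against 0.193% of the 17629 genes it tested, and 0 of 9 had an unadjusted p under 0.05 by edgeR, against 5.88%. The genotypes overlapped in all 9, where 0.248% of tested genes showed no overlap.

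The closest to the threshold was PC (ENSDARG00000098766), with 686 ± 160 CPM over the glo2+/+ libraries against 529 ± 102 CPM over the glo2-/- libraries (SD, n = 6 each). Its log2 fold change was -0.37 (SE 0.175, 95% interval -0.75 to 0.0022, edgeR unadjusted p = 0.0512, adjusted p = 0.819). The variable genes left wide intervals: pck1 had a log2 fold change of -0.054 (SE 0.65) with an interval from -1.46 to 1.35. For G6PC1 (ENSDARG00000013721) it was -0.50 (SE 0.78), with an interval from -2.18 to 1.17. Leaving out 1 library moved the latter between -1.42, without glo2-/- replicate 4, and -0.13, without glo2+/+ replicate 1. A change of 2-fold in either direction thus lies inside both intervals and was not detectable with this spread. The less variable genes were bounded more tightly, with pck2 at -0.088 (SE 0.110, interval -0.32 to 0.15) and fbp1b at 0.12 (SE 0.138, interval -0.18 to 0.42). g6pc1a.1 had 0.13 (SE 0.24), g6pc3 -0.18 (SE 0.18), fbp1a 0.34 (SE 0.42) and PC (ENSDARG00000051939) 0.33 (SE 0.31). Without the 3 libraries highest in exocrine pancreas markers, a choice made after seeing the data, fbp1a had 0.83 (edgeR unadjusted p = 0.0030, adjusted p = 0.773). Leaving out glo2+/+ replicate 6 alone gave 0.94 for fbp1a (edgeR adjusted p = 0.528), and leaving out glo2-/- replicate 5 alone gave 0.097 (edgeR adjusted p = 0.995).

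**Figure D4:**
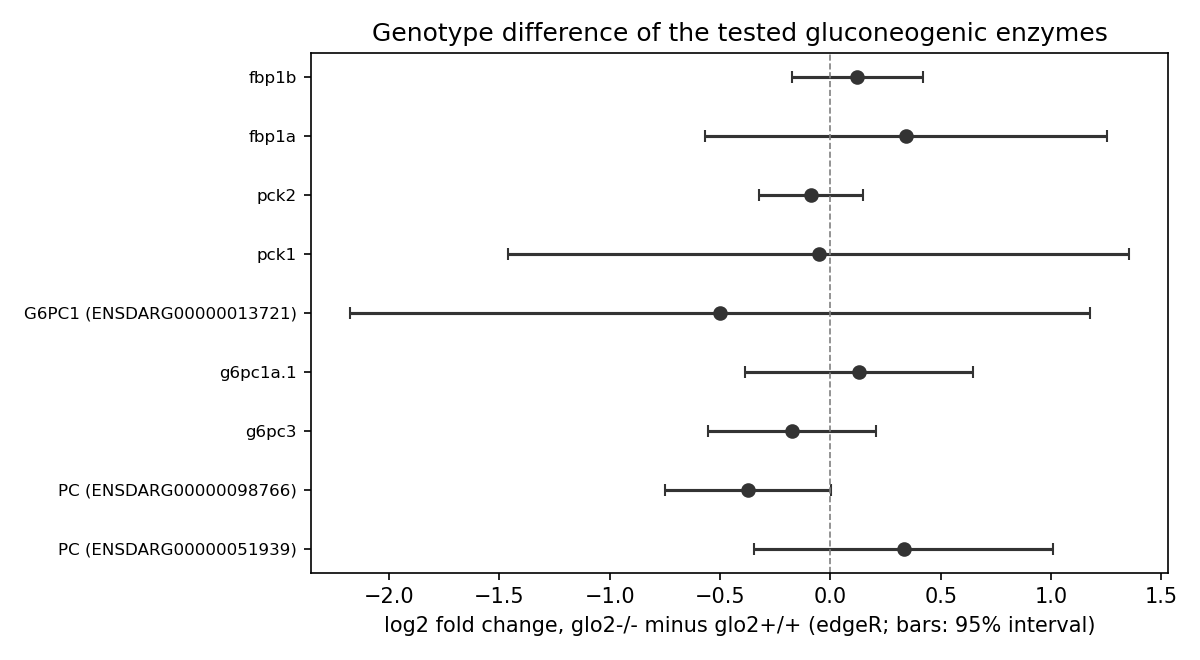
Log2 fold change of glo2-/- over glo2+/+ for the 9 tested enzymes, with 95% intervals from the edgeR fit. Every interval includes 0, and those of pck1 and G6PC1 (ENSDARG00000013721) are the widest.

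The balance between copies was compared between genotypes through 7 log2 ratios of TPM, each with an exact two-sided permutation test (smallest possible p 0.002165). The ratio of PC (ENSDARG00000098766) to PC (ENSDARG00000051939) averaged 3.25 ± 0.744 over glo2+/+ and 2.41 ± 0.412 over glo2-/- libraries (SD, n = 6 each, exact permutation p = 0.0411, adjusted over the 7 ratios 0.288). Its lowest value in glo2+/+ was 2.38, inside the glo2-/- range of 1.99 to 3.03, and the ratio did not pass after adjustment. The ratio of pck1 to pck2 averaged -0.86 ± 1.3 over glo2+/+ and -0.85 ± 1.49 over glo2-/- libraries (exact permutation adjusted p = 0.989). The ratio of g6pc1a.1 to G6PC1 (ENSDARG00000013721) was -0.71 ± 1.56 and -0.19 ± 1.60 in that order (exact permutation p = 0.574, adjusted 0.989). The other 4 ratios also had an adjusted p of 0.989.

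Shared variation among the enzymes was examined over the 36 pairs of the 9 tested genes, with Pearson's r and Spearman's rho of log2 CPM over 12 libraries and permutation tests. No pair passed after adjustment over the 36, and 4 had an unadjusted p under 0.05. The share of such pairs among all tested genes was not computed. pck1 and G6PC1 (ENSDARG00000013721), the variable genes of the set, showed no relation that passed (r = 0.30, rho = 0.32, permutation p = 0.337, adjusted 0.746). glo2+/+ replicate 3 had 174 CPM of pck1, the lowest of its genotype, and 1229 CPM of G6PC1 (ENSDARG00000013721). glo2-/- replicate 5 had 1619 CPM of pck1 and 166 CPM of G6PC1 (ENSDARG00000013721). Other libraries were alike in both genes: glo2-/- replicate 6 had 130 and 103 CPM in that order, and glo2-/- replicate 4 had 871 and 1470 CPM. Without the 2 libraries farthest from the median of pck1 the r of this pair was 0.45. Within glo2+/+ it was 0.17 and within glo2-/- 0.45. Over all 12 libraries the 2 glucose-6-phosphatase copies were also only weakly related (r = 0.24, rho = 0.22, permutation p = 0.447, adjusted 0.753). Within glo2+/+ the r of these copies was 0.74, and within glo2-/- it was -0.15. For pck1 and g6pc1a.1 the relation over all libraries was weak as well (r = -0.10, rho = -0.16, permutation p = 0.756, adjusted 0.884). The largest r of pck1 with another enzyme was with PC (ENSDARG00000051939) (r = 0.44, rho = 0.42, permutation p = 0.151, adjusted 0.454). Without the 2 libraries farthest from the median of pck1 this r was 0.69. Within glo2+/+ it was 0.99 and within glo2-/- it was -0.20.

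The smallest p belonged to g6pc3 and fbp1a, whose coefficient was negative (r = -0.82, rho = -0.78, permutation p = 0.00152, adjusted 0.0547). Without the 2 libraries farthest from the median of g6pc3, r was -0.77, and on log2(TPM + 1) it was -0.44. g6pc3 had only 48 to 91 estimated counts per library, and counting error alone would give it an SD of 0.18, beside its SD of 0.27. pck2 and g6pc1a.1 had r = 0.72 and rho = 0.73 (permutation p = 0.00683, adjusted 0.123), and r = 0.69 without the 2 farthest libraries. Within glo2+/+ this r was 0.72 and within glo2-/- it was 0.88.

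pck1, g6pc1a.1 and G6PC1 (ENSDARG00000013721) were next set beside 16 genes of hormone response, glycolysis and glucose-6-phosphate transport, and beside library total and the pancreas marker score, which made 54 relations. Of these, 4 passed an adjusted p of 0.05, and all 4 concerned glucose-6-phosphatase. The share of all tested genes that would pass with the same 3 enzyme genes was not computed. Whether 4 of 54 is more than other genes would give is therefore not known. The relations were split evenly over the 3 enzyme genes, of which 2 are glucose-6-phosphatase copies, so most of the 54 concerned it by design. The lists that hold the 16 genes were chosen with earlier results of these data known. Adjustment over the 54 relations does not cover that choice. g6pc1a.1 rose and fell with SLC37A4, which carries glucose-6-phosphate to the enzyme in the endoplasmic reticulum (r = 0.93, rho = 0.89, permutation p = 2e-05, adjusted 0.00108). SLC37A4 ran from 172 CPM in glo2-/- replicate 5 to 352 CPM in glo2-/- replicate 3, the libraries in which g6pc1a.1 was lowest, at 77.4 CPM, and highest, at 224 CPM. Without these libraries r was 0.85, and it was 0.83 within glo2+/+ and 0.98 within glo2-/-. g6pc1a.1 also followed gcgra, a receptor for glucagon (r = 0.76, rho = 0.84, permutation p = 0.00367, adjusted 0.0495; r = 0.80 without the 2 farthest libraries). gcgra itself covered only 30.6 to 56.1 CPM, and leaving out any one of 7 libraries lost that call (glo2+/+ replicates 1, 3, 4 and 6 and glo2-/- replicates 2, 3 and 4). Over all 12 such omissions its adjusted permutation p lay between 0.0312 and 0.13.

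G6PC1 (ENSDARG00000013721) passed with 2 genes. Its level rose with PDK2 (ENSDARG00000059054), a kinase that restrains pyruvate dehydrogenase (r = 0.92, rho = 0.92, permutation p = 6e-05, adjusted 0.00162). PDK2 (ENSDARG00000059054) had 7.07 CPM in glo2-/- replicate 6 and 115 CPM in glo2-/- replicate 4, the library with the most G6PC1 (ENSDARG00000013721). The relation had r = 0.87 without the 2 farthest libraries, 0.89 within glo2+/+ and 0.96 within glo2-/-. It was likewise related to IRS2 (ENSDARG00000075282), an adaptor of the insulin receptor (r = 0.84, rho = 0.81, permutation p = 0.00091, adjusted 0.0164). Without the 2 farthest libraries that r was 0.77, and the relation no longer passed without glo2-/- replicate 4 (adjusted p = 0.0706) or without glo2+/+ replicate 6 (adjusted p = 0.0558). The other IRS2 copy, IRS2 (ENSDARG00000037099), missed the threshold (r = 0.75, rho = 0.73, permutation p = 0.00485, adjusted 0.0524). The other PDK2 copy, PDK2 (ENSDARG00000020876), did not pass either (r = 0.66, rho = 0.61, permutation p = 0.0216, adjusted 0.146). The difference between the glucose-6-phosphatase copies in these relations was not tested. Within glo2+/+ each copy also had a high r with the other's partners: G6PC1 (ENSDARG00000013721) 0.93 with SLC37A4 and 0.79 with gcgra, and g6pc1a.1 0.78 with PDK2 (ENSDARG00000059054) and 0.81 with IRS2 (ENSDARG00000075282). Within glo2-/- these were -0.14, -0.44, -0.082 and -0.36 in the same order.

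pck1 passed with none of the 16 genes. Its largest r was -0.48, with the transcription factor CEBPB (rho = -0.41, permutation p = 0.112, adjusted 0.585). Without the 2 farthest libraries this r was -0.11, and it was -0.90 within glo2+/+ and -0.047 within glo2-/-. The largest rho of pck1 was -0.57, with the glucocorticoid receptor NR3C1 (permutation p of rho = 0.056, adjusted 0.336). The r with NR3C1 was -0.38 over all libraries, 0.098 within glo2+/+ and -0.88 within glo2-/-. With PPARGC1A, a coactivator of gluconeogenic genes in mammals, r was 0.035 (rho = -0.007, permutation p = 0.912, adjusted 0.929). Without the 2 farthest libraries the r with PPARGC1A was 0.51. The pancreas marker score had r = 0.11 with pck1, -0.43 with g6pc1a.1 and 0.060 with G6PC1 (ENSDARG00000013721), with adjusted permutation p of 0.865, 0.585 and 0.896. Library total had r between -0.093 and 0.18 with these genes.

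**Figure D5:**
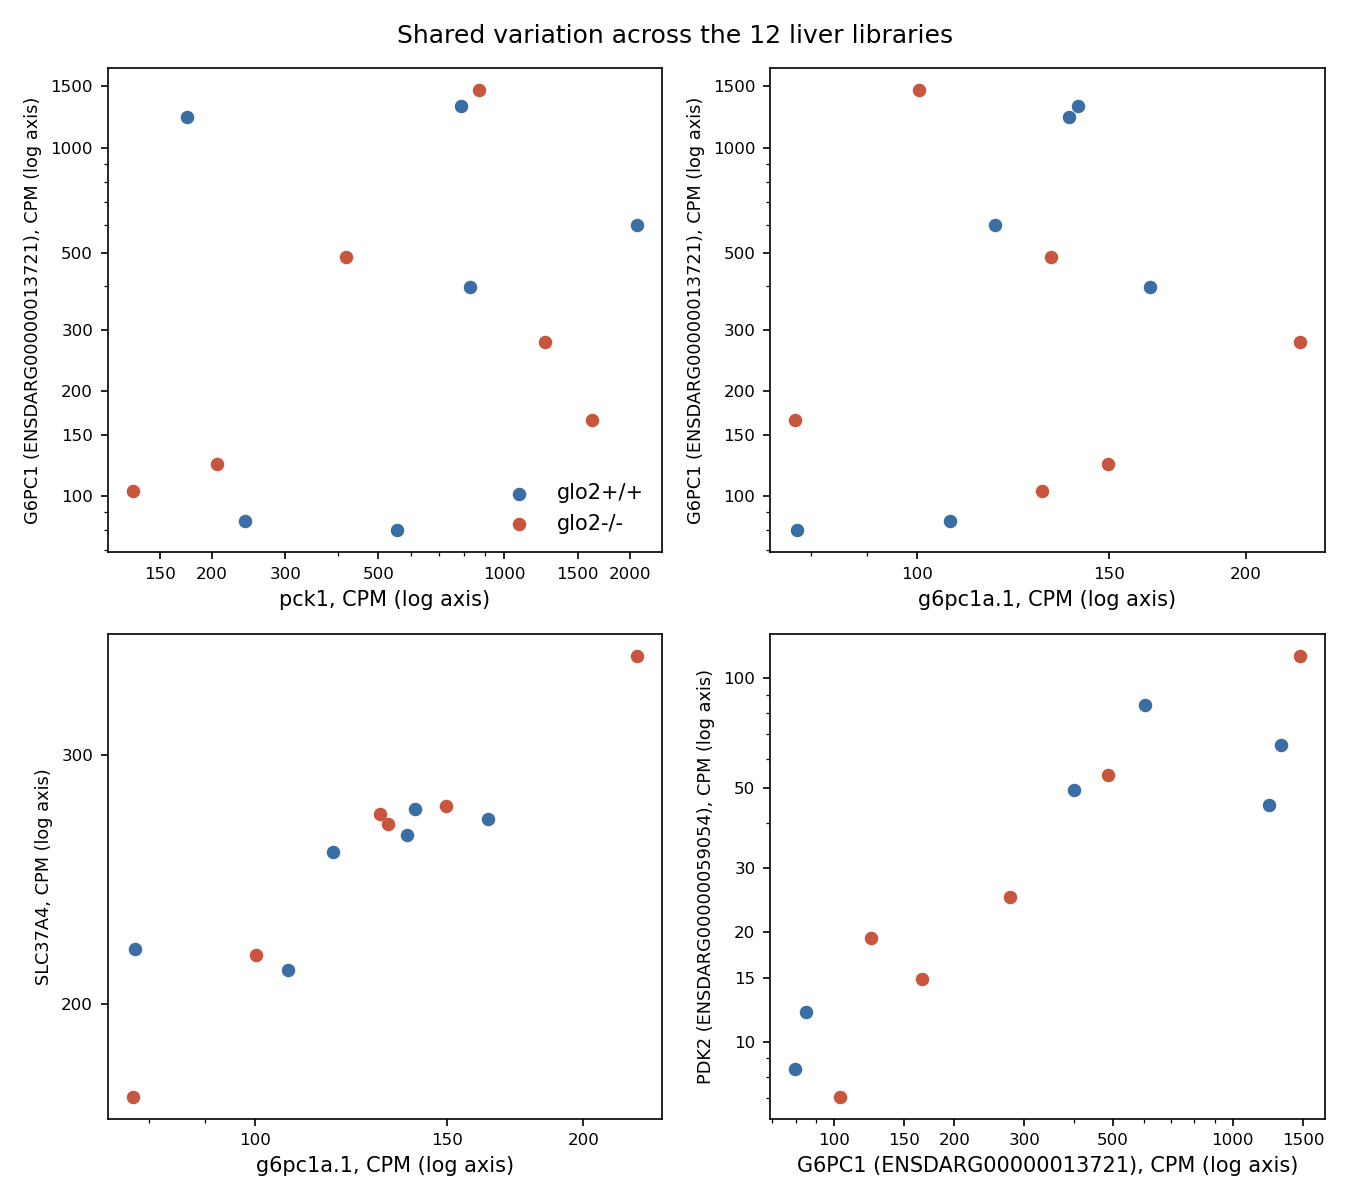
Scatter of CPM on log axes, 1 point per library, for pck1 against G6PC1 (ENSDARG00000013721), g6pc1a.1 against G6PC1 (ENSDARG00000013721), g6pc1a.1 against SLC37A4, and G6PC1 (ENSDARG00000013721) against PDK2 (ENSDARG00000059054). The upper panels show scattered points (r = 0.30 and 0.24), and the lower panels show points along a line in both genotypes (r = 0.93 and 0.92).

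The genes most like 3 of the enzymes were looked up among 6408 tested genes with a mean log2 CPM of at least 3, by Pearson's r of log2 CPM with genotype means subtracted, over 12 libraries. These values are a description of the closest of many genes. The 5 closest to pck1 were gnb1b (r = 0.92), HNF4A (0.89), EDC3 (0.88), eif1axa (0.88) and RAB8B (0.87). HNF4A, a transcription factor of the hepatocyte, covered 150 to 279 CPM. Closest to G6PC1 (ENSDARG00000013721) were PDK2 (ENSDARG00000059054) (r = 0.92), GSKIP (0.90), HSD11B2 (0.89), onecutl (0.88) and ITPKC (0.86). HSD11B2, which inactivates glucocorticoids in mammals, ran from 49.3 to 446 CPM. Among the closest to PC (ENSDARG00000098766) were UCK1 (r = 0.95), GDPD1 (0.93), GPT (ENSDARG00000019541) (0.90) and SLC25A42 (0.90). GPT makes pyruvate from alanine. The best match of any of the 9 tested enzymes had an r between 0.87 and 0.95.

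The rest of the pathway was read from 4 lists in the same fit. Among the enzymes of the reversible steps and the carriers that serve them, 13 of 35 tested genes had a log2 fold change above 0 and 22 below it, with a median of -0.062 beside -0.015 over all tested genes. Over all tested genes 6906 lay above 0 and 7603 below. None of the list passed after adjustment by edgeR, and 3 of the 35 had an unadjusted p under 0.05, beside 5.88% of all tested genes. In this list 1 gene showed no overlap of the genotypes, beside 0.248% of all tested genes. That gene, lactate dehydrogenase LDHA, averaged 7.23 ± 1.49 CPM over glo2+/+ libraries and 11.8 ± 3.43 CPM over glo2-/- libraries (SD, n = 6 each, log2 fold change 0.71, SE 0.195, edgeR adjusted p = 0.668). It was also 1 of the 3 with an unadjusted p under 0.05, and the others were MPC2 (ENSDARG00000037679) and gpd1c. MPC2 (ENSDARG00000037679), a subunit of the mitochondrial pyruvate carrier, had -0.52 (SE 0.158, edgeR adjusted p = 0.797), and gpd1c, a glycerol-3-phosphate dehydrogenase, had -0.65 (SE 0.29, edgeR adjusted p = 0.819).

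Of the opposing glycolytic enzymes, 7 of 16 tested lay above 0 and 9 below on the log2 scale (median -0.069), and edgeR called none. HK1, a hexokinase, averaged only 2.11 ± 0.634 CPM over glo2+/+ libraries and 3.81 ± 0.933 CPM over glo2-/- libraries (SD, n = 6 each, log2 fold change 0.85, SE 0.231, edgeR adjusted p = 0.668). It was the 1 gene of these 16 with an unadjusted p under 0.05, a share near the 5.88% of all tested genes. The pyruvate kinase of liver, PKLR, averaged 2429 ± 1021 CPM over glo2+/+ libraries and 1624 ± 556 CPM over glo2-/- libraries (log2 fold change -0.58, SE 0.297, edgeR adjusted p = 0.819). PFKFB4, also at a low level, averaged 1.88 ± 0.732 CPM over glo2+/+ libraries and 2.75 ± 0.944 CPM over glo2-/- libraries (log2 fold change 0.55, SE 0.28, edgeR adjusted p = 0.819).

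Among regulators of gluconeogenic transcription, 17 of 44 tested lay above 0 and 27 below (median -0.13), beside 6906 above and 7603 below over all tested genes. None passed by edgeR, and 3 had an unadjusted p under 0.05, a share near the 5.88% of all tested genes. All 3 had a negative log2 fold change, as did 495 of the 853 genes under that p over all. They included the oxysterol receptor NR1H3 (-0.78, SE 0.235, edgeR adjusted p = 0.791) and crema, of the CREB and CREM family (-0.66, SE 0.234, edgeR adjusted p = 0.819). Among hormone receptors and genes responsive to insulin or glucagon, 11 of 33 were positive and 22 negative (median -0.078), with 0 at an unadjusted p under 0.05. The smallest p there belonged to the desaturase SCD, with 2.65 ± 2.58 CPM over glo2+/+ libraries and 15.6 ± 33.5 CPM over glo2-/- libraries (edgeR adjusted p = 0.819), and PER1 (ENSDARG00000012499) had a log2 fold change of -0.34 (SE 0.211, edgeR adjusted p = 0.833). DESeq2 called 0 genes in each of the 4 lists.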

How the data were processed

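RNA-seq of 12 zebrafish liver libraries was used as deposited. The submitters' processing notes name Trim Galore 0.6.4, kallisto 0.4.6 and build GRCz11. How transcripts were combined into genes, with which annotation release, is not given in the sources used here. The authors deposited estimated counts, of which 19.1% were not whole (tolerance 0.001), and TPM for 32520 genes. Names were found for 29201 identifiers. Reads that match more than 1 gene are divided by likelihood, so their split is uncertain.

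Estimated counts were rounded, and the main test was that of edgeR 4.0.16 under R 4.3.3 (filterByExpr, TMM, quasi-likelihood test, genotype as the only term), with Benjamini-Hochberg adjustment over 14509 genes. CPM used TMM factors and log2 CPM a prior count of 2. Copy ratios used log2(TPM + 0.1) and exact permutation over 924 assignments, and correlations used 100000 permutations. The edgeR step was tested on simulated data with the same relative spread set for every gene. That test therefore cannot tell how well changes are found in genes as variable as pck1 and G6PC1 (ENSDARG00000013721). Precision is set mainly by the 6 libraries per genotype, and counting error was small for all but the weakest genes.

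The text names all members, the targeted gene, fixed comparison genes, the 3 genes of smallest p per list and the 5 genes most like 3 enzymes. The members and lists were chosen with earlier results of these data known. Of 328 list entries, 23 matched no gene. Alternatives were other scalings and filters, DESeq2 1.42.0, limma 3.58.1 on log2 TPM, the replicate block, a pancreas marker covariate and leaving out libraries. The smallest chi-square per degree of freedom between any 2 of the libraries was 34.4, so none repeated another within counting error. This value cannot tell whether 2 libraries came from the same fish. Planned sequence comparisons were not made, and some genes falling under that rule are left out of the text.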

Additional observations from a re-analysis of the deposited data

Results flagged for a closer look

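In 32 sets of per-genotype values, 2 held a library far from the others, where chance gives about 1.6. The log2 TPM ratio of fbp1b to fbp1a was 6.158 in glo2+/+ replicate 6, while the other glo2+/+ libraries lay between 7.691 and 8.494. That library had 22.2 TPM of fbp1a and 2956 CPM of exocrine pancreas markers, and glo2-/- replicate 5, with 4309 CPM of those markers, had a ratio of 6.139. glo2-/- replicate 1, with the most of those markers (9025 CPM), had a ratio of 8.49, the highest of its genotype. The part of the pancreas markers in this value was not tested. The log2 ratio of G6PC1 (ENSDARG00000013721) to G6PC1 (ENSDARG00000014967) was 12.03 in glo2-/- replicate 4, while the others of that genotype lay between 7.645 and 9.234. In that library the first copy had 664 TPM and the second 1 estimated count, so the ratio depends on the pseudocount.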

How the results depend on the processing

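No enzyme passed the threshold in any of 21 alternatives per gene (smallest adjusted p 0.528). Over all genes DESeq2 called 34, and leaving out 1 library gave 1 to 3. Values without a call changed sign. The log2 fold change of pck1 was 0.0089 and 0.0092 by limma on TPM and -0.42 to 0.54 without 1 library. That of pck2 was 0.00018 and 0.00020 by limma, and that of g6pc1a.1 was -0.072 to 0.26 without 1 library. The difference in the log2 ratio of pck1 to pck2 was -0.023 on CPM, -0.30 without the 3 libraries highest in pancreas markers and -0.34 to 0.39 without 1 library. Without 1 library, the ratio of g6pc1a.1 to G6PC1 (ENSDARG00000014967) differed by -0.15 to 0.32, that of G6PC1 (ENSDARG00000013721) to G6PC1 (ENSDARG00000014967) by -0.95 to 0.052, and that of the G6PC1 sum to g6pc3 by -0.32 to 0.17. Pairs of enzymes past the threshold numbered 0 to 4, with 4 without glo2-/- replicate 3 and 1 without glo2+/+ replicate 1 or 5. Relations with fixed genes numbered 2 to 6, and 2 without the pancreas-high libraries. There, g6pc1a.1 with gcgra had r = 0.75 and G6PC1 (ENSDARG00000013721) with IRS2 (ENSDARG00000075282) r = 0.81, neither passing with 9 libraries. Without 1 library these r were 0.70 to 0.79 and 0.80 to 0.90. The relations of g6pc1a.1 with SLC37A4 and of G6PC1 (ENSDARG00000013721) with PDK2 (ENSDARG00000059054) passed in every alternative run. The causes were not tested. Libraries with the same replicate number deviated with r of -0.28 to 0.20, and 0 of 6 were closest to their own number. With the replicate block, pck1 had a log2 fold change of -0.20, PC (ENSDARG00000098766) -0.36, and 1 gene passed over all. For G6PC1 (ENSDARG00000014967), depth allows no comparison.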

Other observations

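Several genes of glucose metabolism outside the enzyme set also varied between libraries of one genotype. PDK2 (ENSDARG00000020876) ran from 1.27 to 55.8 CPM within glo2+/+ and from 0.399 to 16.3 CPM within glo2-/-. FASN, the fatty acid synthase, ran from 48.7 to 712 CPM within glo2+/+ and from 178 to 782 CPM within glo2-/-. IGFBP1, a carrier of insulin-like growth factors, ran from 9.81 to 81.0 CPM and from 12.6 to 26.9 CPM in that order. FOXO1 (ENSDARG00000099555), a transcription factor restrained by insulin in mammals, ran from 8.57 to 72.5 CPM within glo2+/+ and from 10.3 to 56.2 CPM within glo2-/-. TAT, a tyrosine aminotransferase, covered a narrower range relative to its level, 436 to 843 CPM and 387 to 702 CPM in the same order. So did NR3C1, the glucocorticoid receptor, with 16.7 to 28.5 CPM and 12.9 to 21.7 CPM. These ranges are given without their rank among all tested genes.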
